A study of Homo sapiens with 26 samples.

Results

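The 7 clusters of KRAB zinc-finger genes on human chromosome 19 were described in 26 single cells assayed by DamID. They were defined as 7 fixed stretches of hg19 coordinates, and their members are the 100 kb bins that lie within them and carry a value. All 132 bins inside the stretches had a value and were used, out of 30376 bins in the table, of which 26331 were used. The remaining 427 used bins of chromosome 19 and the 24299 used bins of the other autosomes served for comparison.

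All 26 cells came from KBM7, an established near-haploid human leukaemia line, and from 1 clone of it, clone 5-8. Each was labelled 1N and DamOnly, so that no protein was fused to the Dam methylase, although lamin B1 stands in the series title. The cells form 1 group with no untreated or fusion control. Dam was induced with 0.5 nM Shield1, a small molecule that stabilises a tagged protein, for 15 h before single cells were sorted from the smallest 2% that carried both Fucci cell cycle markers. DNA cut at methylated sites was amplified over 21 extension steps. The design text speaks of 124 cells, of which 26 are analysed here, and the cells are single cells of 1 clone and not replicate cultures. For that reason no p-value was computed, and each comparison gives the spread over cells and the number of cells on each side.

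In DamID, a bacterial adenine methylase marks GATC sites that it can reach, and the marked sites are then cut and amplified. With Dam expressed alone, the marks are known to follow accessible chromatin. KRAB zinc-finger proteins bind DNA, often in transposable elements, through arrays of fingers and recruit the corepressor TRIM28, which brings enzymes that methylate histone H3 at lysine 9. Many of their genes arose by tandem duplication and lie in clusters on chromosome 19, and the genes themselves are known to carry that same repressive mark over their finger exons. ZNF91 and ZNF93 are known as repressors of SVA and LINE-1 retrotransposons, PEG3 and ZNF331 are imprinted genes, and ZNF274 is known to bind other zinc-finger genes.

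Each cluster is called here by a gene that textbook maps place in it. The ZNF266 cluster (9.2 to 9.9 Mb, 7 bins), the ZNF44 cluster (11.7 to 12.6 Mb, 9 bins) and the ZNF91 cluster (19.8 to 24.4 Mb, 46 bins) lie on the short arm. The ZNF382 cluster (36.7 to 38.3 Mb, 16 bins), the ZNF45 cluster (44.3 to 45 Mb, 7 bins), the ZNF83 cluster (52.3 to 54.1 Mb, 18 bins) and the PEG3 cluster (56.2 to 59.1 Mb, 29 bins) lie on the long arm. A stretch of 30 bins without values parts the arms. In the gene order of RefSeq on GRCh38.p14, 223 of the 262 zinc-finger genes of chromosome 19 formed 7 matching runs broken by at most 3 other genes at a time. The runs held 11 (ZNF317 to ZNF846), 24 (ZNF627 to ZNF791), 37 (ZNF101 to ZNF254), 29 (ZNF565 to ZNF573), 20 (ZNF283 to ZNF180), 38 (ZNF577 to ZNF331) and 64 (ZNF787 to ZNF446) zinc-finger genes. The 19 other genes in the runs included 3 olfactory receptor genes beside ZNF266, the vomeronasal receptor genes VN1R2 and VN1R4 in the ZNF83 run, and AURKC, a meiotic kinase gene, in the PEG3 run. The files are on hg19, so genes were matched to clusters by order only, and no bin value is assigned to a gene.

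The promoters of the ZNF91 run are shown first because 14 of the 29 hold a GATC, the only sequence Dam can methylate, next to a stretch that recurs in the run. Promoters were taken as the 250 bases before the start in RefSeq, and 191 of the 223 run genes had an entry. GATC occurred in 23 of 29 promoters of the ZNF91 run (79.3%) and in 14 of 23 of the ZNF44 run (60.9%). It occurred in 12 of 55 of the PEG3 run (21.8%) and in 1 of 10 of the ZNF266 run, against 34.0% of all 15843 protein-coding promoters. The ZNF382, ZNF83 and ZNF45 runs lay between, at 40.7%, 41.9% and 31.3%. GATC reads the same on both strands.

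A search for the most frequent run of 12 bases in the ZNF91-run promoters, chosen after the promoters had been seen, gave a tie between CTGTCACTCAGG and GTCCAATCAGGC, each in 18 of 29 promoters. CTGTCACTCAGG, searched on both strands, was also in 5 of 23 promoters of the ZNF44 run, in 0 of 139 of the other 5 runs and in 6 of 15652 promoters outside the runs. GTCCAATCAGGC was in 1 of 23, 0 of 139 and 8 of 15652. In 14 of the 29 promoters a GATC lay 4 to 7 bases before CTGTCACTCAGG, between 78 and 139 bases before the gene's start. In the lines below, GATC and CTGTCACTCAGG are in capitals, and the sequences, on the gene's strand, come from chromosome 19 of GRCh38.p14.
ZNF93, chr19:19900795-19900852, plus strand: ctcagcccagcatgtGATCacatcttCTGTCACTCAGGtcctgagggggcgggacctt
ZNF208, chr19:22011034-22011091, minus strand: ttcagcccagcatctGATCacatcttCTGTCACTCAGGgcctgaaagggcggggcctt
ZNF730, chr19:23116880-23116934, plus strand: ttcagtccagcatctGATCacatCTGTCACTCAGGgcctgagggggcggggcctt
ZNF91, chr19:23395568-23395625, minus strand: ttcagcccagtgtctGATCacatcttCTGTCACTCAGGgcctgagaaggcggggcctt
ZNF681, chr19:23758986-23759043, minus strand: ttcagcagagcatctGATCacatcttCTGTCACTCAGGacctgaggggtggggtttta
The ZNF44 run is shown by the 250 bases before the start of ZNF44, because its cluster had the highest mean level. This promoter does not hold an exact CTGTCACTCAGG, but it holds ctgtcactcagt, which differs in the last base only, with its GATC 7 bases before. In the 5 promoters of the run that hold the exact stretch, no GATC lay within 10 bases before it. Only exact matches were counted, so promoters with a near match are not in these counts. The single GATC of the ZNF44 promoter is in capitals.
ZNF44, chr19:12294884-12295133, minus strand: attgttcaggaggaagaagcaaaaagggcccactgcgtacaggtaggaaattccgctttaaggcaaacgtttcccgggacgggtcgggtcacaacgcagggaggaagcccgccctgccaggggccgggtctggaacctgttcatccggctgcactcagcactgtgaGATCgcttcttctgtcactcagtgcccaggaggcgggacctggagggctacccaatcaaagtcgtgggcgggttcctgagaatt
These letters are a description of the genes. The DamID values are sums over 100 kb, so none of them belongs to a promoter or to a single GATC.

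The values are a ratio of observed to expected signal per bin and cell. To set cells side by side, each ratio was divided by the mean of its cell over used bins, and the level of a set of bins is the mean of these relative ratios, so that 1 is the average bin of the cell. Whole counts could be recovered from the ratios, and their totals ran from 20182 to 178941 per cell with a median of 42448.5. The clusters held 5682 counts over all cells, or 1.66 per bin and cell, so most bins of a cell rest on very few counts. Cells 3, 13 and 22 stood apart on chromosome 19 as a whole. The level of its bins outside the clusters was 3.09 in cell 3 and 3.29 in cell 13, the highest of the 26, and 0.728 in cell 22, the lowest, which also had 1 of the lowest totals, 21105. The mean correlation between clusters across cells, 0.252, fell to 0.111 without cells 3 and 13 and to 0.231 without cell 22. Correlations are therefore given with and without cells 3 and 13.

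The zinc-finger clusters lay below the rest of chromosome 19 in every cell. Their level was 1.08 ± 0.326 (SD, n = 26 cells), with a lowest value of 0.500 in cell 22, a median of 1.03 and a highest value of 2.17 in cell 3. The rest of the chromosome was at 1.83 ± 0.527, with a median of 1.77. Within a cell, the clusters were at 0.591 times the rest (mean log2 -0.76 ± 0.25), from -1.57 in cell 10 to -0.26 in cell 21. They were lower in 26 of 26 cells, and the difference was larger than its spread over cells. Without cells 3 and 13 the mean log2 was -0.77.

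Against the other autosomes, the clusters as a whole were on neither side. Their level was higher in 15 cells and lower in 11, with a mean log2 of 0.06 ± 0.40. The direction differed between bins of low and high expected signal, as described further on. The rest of chromosome 19 was above the other autosomes in 25 of 26 cells, by 0.82 ± 0.44 on the log2 scale, with cell 22 the exception at -0.48. Summed over cells, the clusters had 1.13 times the counts expected at the rate of the other autosomes (exact 95% Poisson interval 1.10 to 1.16, counting error only), and the rest of the chromosome had 1.86 times (1.84 to 1.88). For scale, chromosome 4, a gene-poor chromosome, was at 0.731 ± 0.129 and chromosome 17, a gene-dense one, at 1.47 ± 0.205.

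**Figure D1:**
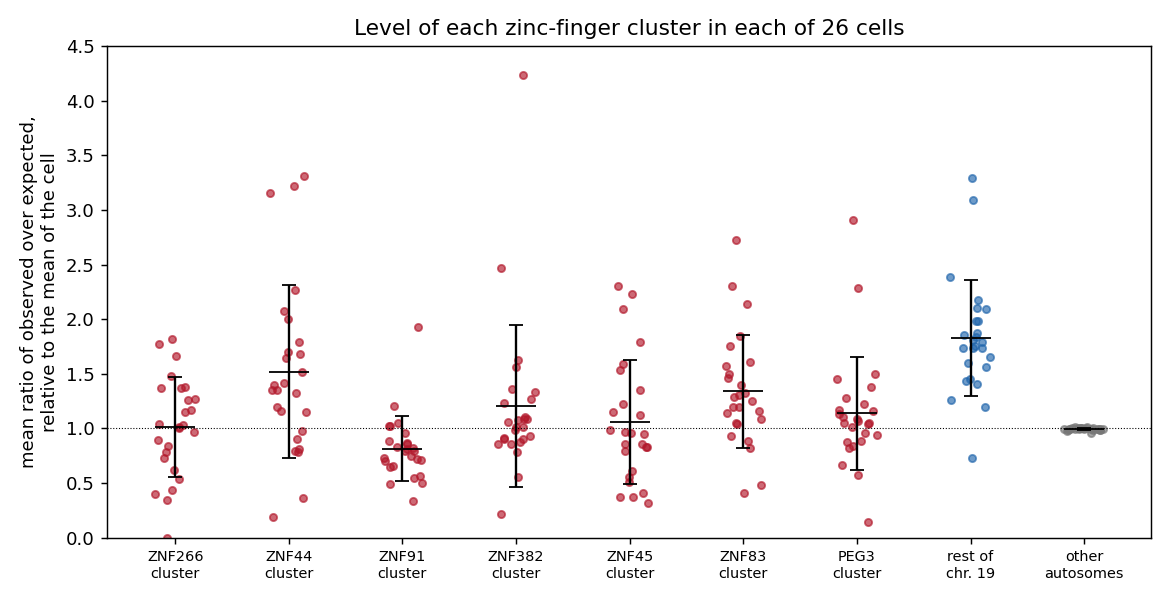
Level of each zinc-finger cluster, of the rest of chromosome 19 and of the other autosomes (vertical axis, mean ratio of observed over expected relative to the mean of the cell, no unit), with 1 point per cell for 26 cells and a bar for the mean ± SD. The 7 clusters have means from 0.816 (ZNF91) to 1.52 (ZNF44), and the rest of chromosome 19 has a mean of 1.83.

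The 3 clusters of the short arm covered both ends of the range. The ZNF44 cluster was at 1.52 ± 0.795 (lowest 0.194 in cell 22, median 1.37, highest 3.31 in cell 21) and was above 1 in 19 cells. Its summed counts were 1.56 times the autosomal rate (95% interval 1.43 to 1.70, 517 counts). It was the highest of the 7 clusters in 11 cells. The high values were at 3.31, 3.22 and 3.15 in cells 21, 10 and 3, of which cells 21 and 10 had low totals (20182 and 25222).

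The ZNF91 cluster, the longest and the 1 that holds ZNF93 and ZNF208, was the lowest on average. It was at 0.816 ± 0.298 (lowest 0.335 in cell 10, median 0.794, highest 1.93 in cell 3) and above 1 in 5 cells. Its summed counts were 0.881 times the autosomal rate (0.827 to 0.937, 1001 counts). Against the other autosomes it lay lower in 21 of 26 cells, with a mean log2 of -0.37 ± 0.48, and it was the only cluster placed below them. It was the lowest cluster of its cell in 9 cells and the highest in 0.

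The ZNF266 cluster, whose run is the shortest with 11 zinc-finger genes, was at 1.01 ± 0.454 (lowest 0 in cell 23, median 1.02, highest 1.82 in cell 6). It lay above 1 in 15 cells. Its 324 counts were 1.11 times the autosomal rate, with an interval from 0.992 to 1.24 that includes 1. In cell 23, which had 21657 counts in all, no count fell in its 7 bins, so its log2 values are means over 25 cells.

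On the long arm the 4 clusters had means between 1.06 and 1.34. The ZNF83 cluster, whose run ends at the imprinted gene ZNF331, was at 1.34 ± 0.517 (lowest 0.411 in cell 10, median 1.27, highest 2.72 in cell 13). It was above the other autosomes in 21 of 26 cells, by 0.32 ± 0.61 on the log2 scale, and was the only cluster placed above them. Its 954 counts were 1.32 times the autosomal rate (1.24 to 1.41).

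The ZNF382 cluster was at 1.21 ± 0.737, with a median of 1.04. Its highest value, 4.23 in cell 13, was the highest of any cluster in any cell, and the next was 2.47 in cell 3. The PEG3 cluster, which runs to the end of the long arm and has the most zinc-finger genes, was at 1.14 ± 0.519 (lowest 0.142 in cell 22, median 1.06, highest 2.91 in cell 13). The ZNF45 cluster was at 1.06 ± 0.570 (lowest 0.320 in cell 17, median 0.955, highest 2.31 in cell 3) and was the lowest cluster in 7 cells. None of these 3 was placed on a side of the other autosomes, with 15, 17 and 10 cells above.

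In order of mean level the clusters ran ZNF44, ZNF83, ZNF382, PEG3, ZNF45, ZNF266 and ZNF91. Of the 21 pairs, 4 had at least 21 of 26 cells on the same side, the share of 80% used throughout to place a comparison. All 4 set the ZNF91 cluster below another. It was below the ZNF83 cluster in 24 cells (mean log2 -0.69 ± 0.65), below the ZNF44 cluster in 23, below the PEG3 cluster in 23 (-0.41 ± 0.83) and below the ZNF382 cluster in 22 (-0.46 ± 0.80). The ZNF44 cluster exceeded it by 0.75 ± 1.00 on the log2 scale. No 2 neighbours in the order were placed apart, and the overlap of the cells is large.

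Set against the rest of chromosome 19, 6 of the 7 clusters were placed below. The ZNF91 cluster was furthest below, at -1.19 ± 0.57 on the log2 scale and lower in 25 cells, the exception being cell 22 at 0.12. The ZNF45 cluster was at -0.94 ± 0.61 (24 cells), the ZNF266 cluster at -0.89 ± 0.71 (25 cells), the PEG3 cluster at -0.78 ± 0.50 (26 cells) and the ZNF382 cluster at -0.72 ± 0.55 (24 cells). The ZNF83 cluster was at -0.50 ± 0.56 with 21 cells lower, the fewest that place a cluster. Left without cells 3 and 13 it was at -0.51 with 5 of 24 cells above. Against the rest of the long arm alone it was at -0.37 with 7 cells above. In both of these settings it was placed on neither side. With bins of under 0.5 times the median expected signal left out, it was at -0.68 with 1 cell above and was placed below.

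The ZNF44 cluster was not placed, at -0.43 ± 0.77 with 18 cells lower and 8 higher. Against the rest of the short arm alone it was at -0.57 with 4 cells above, and with 1 bin added on each side it was at -0.43 with 5 cells above, and it was placed below in both. Counted by cell, all 7 clusters lay below the rest of the chromosome in 11 cells, 6 in 12 cells and 5 in 2 cells. In the remaining cell, 4 or fewer did.

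The direct surroundings of the clusters were high. Chromosome 19 bins within 1 Mb of a cluster and in no cluster had means between 1.57 (low-coordinate side of the ZNF45 cluster, 10 bins) and 2.61 (low-coordinate side of the ZNF44 cluster, 10 bins). The exceptions were the high-coordinate side of the ZNF91 cluster, where 2 used bins before the stretch without values were at 0.434 ± 1.08, and that of the PEG3 cluster, which has no bin beyond it. Every cluster was placed below its flanks. The mean log2 ran from -1.19 ± 0.71 for the ZNF266 cluster (25 cells lower) and -1.12 ± 0.68 for the ZNF91 cluster (24 cells) to -0.62 ± 0.59 for the PEG3 cluster (24 cells) and -0.58 ± 0.51 for the ZNF83 cluster (24 cells). The ZNF44 cluster, which was not placed against the whole chromosome, was at -0.76 ± 0.63 against its flanks and lower in 24 cells. The ZNF382 cluster was at -0.78 ± 0.51 (25 cells) and the ZNF45 cluster at -0.93 ± 0.70 (23 cells). With 1 bin added on each side, the ZNF45 cluster was at -0.49 and no longer placed.

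At the limits themselves, the 3 bins outside had a mean of 1.92 ± 0.593 and the 3 bins inside 1.24 ± 0.360, over 38 and 42 bins. The outer bins were higher in 25 of 26 cells. Single limits were less even. The high-coordinate limit of the ZNF382 cluster went from 2.56 outside to 0.898 inside and was higher outside in 25 cells. At the low-coordinate limit of the ZNF45 cluster the means were 2.54 and 1.14 (24 cells), and at the low-coordinate limit of the ZNF83 cluster 2.36 and 1.20 (22 cells). The low-coordinate limit of the ZNF266 cluster had 0.970 outside and 1.08 inside, with the outside higher in 11 cells only. The high-coordinate limit of the ZNF91 cluster went furthest the other way, with 0.434 outside, from 2 used bins, and 1.55 inside. There the outside was higher in 5 cells. By distance, the mean of the 3 bins outside was 2.40, 1.72 and 1.69 toward the limit, and 1.21, 1.33 and 1.18 in the 3 bins inside going away from it.

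**Figure D2:**
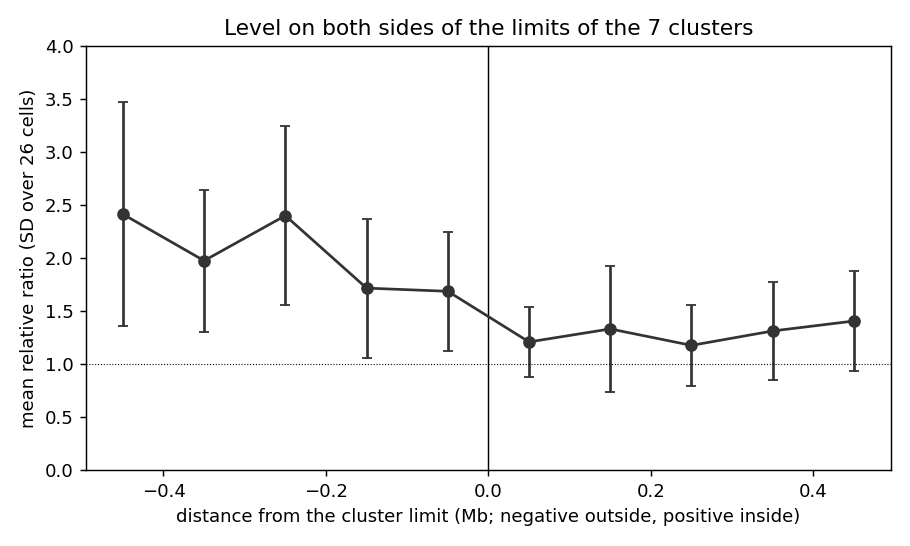
Mean relative ratio (vertical axis, mean over 26 cells with SD) by distance from the limits of the 7 clusters in Mb (horizontal axis, negative outside and positive inside, 12 to 14 bins per point). The points outside lie between 1.69 and 2.41 and those inside between 1.18 and 1.41.

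Within the ZNF91 cluster the level changed along its length. By segments of 1 Mb from the low-coordinate limit it was 0.942 ± 0.601, 0.634 ± 0.422, 0.510 ± 0.332 and 0.884 ± 0.459, and its last 6 bins were at 1.31 ± 1.09. The 3 inner segments lay below the rest of chromosome 19 in 26 of 26 cells, the first in 25 and the last in 22. The longest unbroken run of bins with a mean under 1 held 15 bins, from 21700001 to 23200000, at 0.558 ± 0.404 with 220 counts, and exceeded 1 in 1 cell. The next 4 bins, from 23200001 to 23600000, are the longest run of the cluster with means of 1 or more. They were at 1.35 ± 0.596 with 139 counts and above 1 in 19 cells. Both runs were picked by these same means, so their levels and cell counts only describe them. The 5 outermost bins on each side were higher than the inner bins in 24 of 26 cells, by 0.95 ± 0.88 on the log2 scale.

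The PEG3 cluster had a low middle and a high end. Its first 2 segments were at 1.02 ± 0.474 and 0.886 ± 0.498, and its last 9 bins at 1.56 ± 0.811. Its longest run of bins with means under 1 held 8 bins, from 56900001 to 57700000, at 0.626 ± 0.454 (284 counts, above 1 in 5 cells). Its longest run with means of 1 or more was the last 5 bins, from 58600001 to 59100000. They were at 1.75 ± 0.824 (502 counts, above 1 in 21 cells). Both runs were picked by these same means, so their levels and cell counts only describe them. Its outer bins exceeded its inner bins in 24 cells, by 0.69 ± 0.63 on the log2 scale. In RefSeq order the last genes of the chromosome are SLC27A5, ZBTB45, TRIM28, CHMP2A, UBE2M and MZF1. The gene of the corepressor used by KRAB zinc-finger proteins thus follows the run of genes that ends at ZNF446. It need not lie outside the measured stretch, since no used bin lies beyond that stretch. The last bins may therefore hold genes that are not part of the run, and which genes they hold was not worked out.

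The other clusters long enough for this comparison were on neither side. In the ZNF382 cluster the outer bins were higher in 20 cells (0.63 ± 0.95), and its first 10 bins were at 1.35 ± 0.748 against 0.972 ± 0.855 for the last 6. In the ZNF83 cluster they were higher in 9 cells (-0.27 ± 0.62), and its first 10 and last 8 bins were at 1.31 ± 0.618 and 1.38 ± 0.551. Inner bins lower than the outer bins of the same cluster were thus placed in 2 of the 4 clusters of at least 15 bins. For the ZNF91 cluster this could not be repeated with bins of low expected signal left out.

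**Figure D3:**
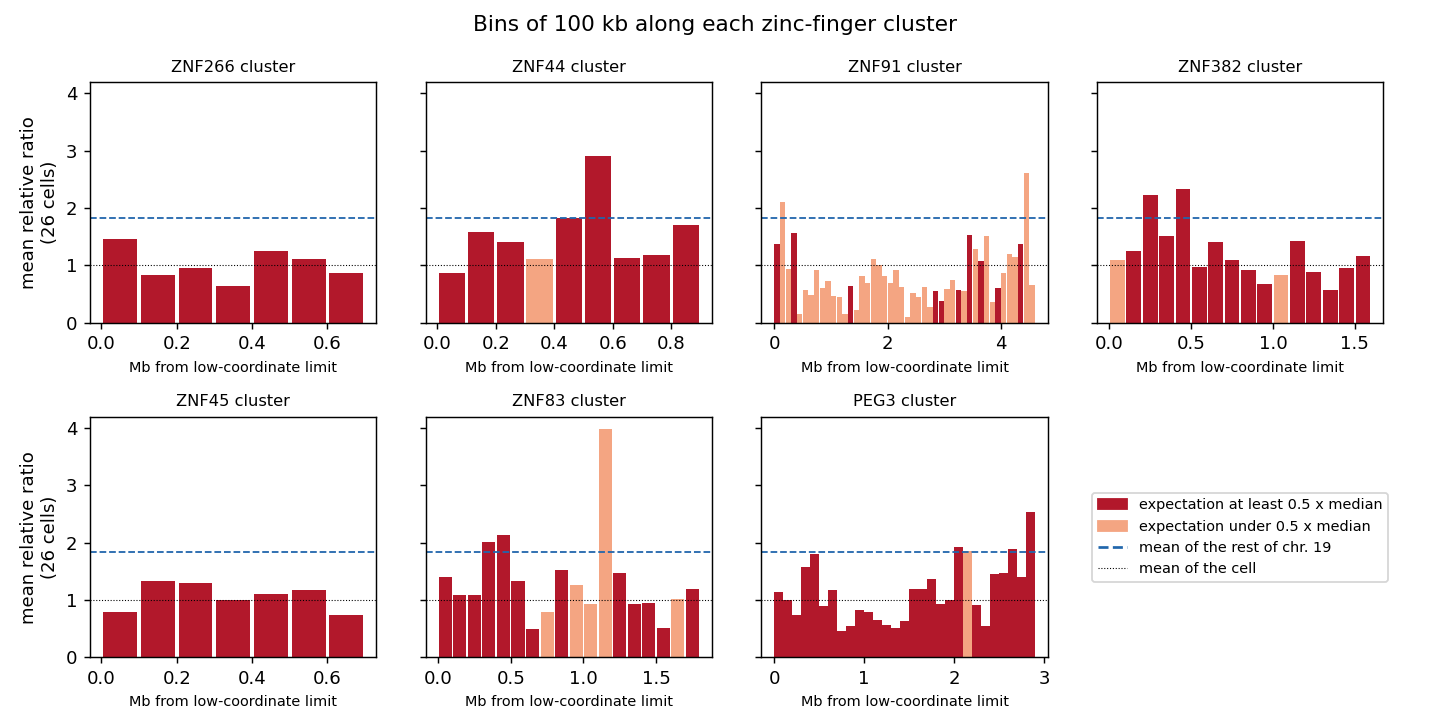
Mean relative ratio of each 100 kb bin over 26 cells (vertical axis) along the 7 clusters (horizontal axis, Mb from the low-coordinate limit), with bins of low expectation in the lighter colour, a dashed line at 1.83 for the rest of chromosome 19 and a dotted line at 1 for the mean of the cell. The 15 bins at 0.558 in the ZNF91 cluster and the 8 bins at 0.626 in the PEG3 cluster were picked as the longest runs under 1. The highest bar is the ZNF83 bin at 3.99.

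Single bins were named among the 87 of 132 whose expectation was at least 0.5 times the median of used bins. The highest was in the ZNF44 cluster at 12200001 to 12300000, with a mean of 2.90 ± 1.99 (lowest 0, median 2.23, highest 8.22). A bin was taken as positive in a cell at a deposited ratio of at least 1, before division by the mean of the cell. By that measure this bin was positive in 23 of 26 cells. The second was at the end of the PEG3 cluster, 59000001 to 59100000, with 2.53 ± 2.04 (lowest 0, highest 9.32) and 21 positive cells. Both stood above the mean of the rest of the chromosome, so high bins lay inside the measured stretches as well as beside them. The PEG3 bin is the last of its stretch, and whether it holds genes of the run was not worked out.

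Of the next 3, the ZNF382 cluster held 37100001 to 37200000 at 2.34 ± 2.26 and 36900001 to 37000000 at 2.23 ± 1.78, positive in 19 and 20 cells. The ZNF83 cluster held 52700001 to 52800000 at 2.13 ± 1.91, positive in 19 cells. Under the rule, the highest bins of the remaining clusters were 20100001 to 20200000 in the ZNF91 cluster at 1.56 ± 1.28, 9200001 to 9300000 in the ZNF266 cluster at 1.45 ± 1.45, and 44400001 to 44500000 in the ZNF45 cluster at 1.33 ± 0.997, each positive in 16 cells. A bin of the ZNF83 cluster at 53400001 to 53500000 fell outside the rule, with an expectation of 0.459 times the median, and was singled out after its values were seen. It was at 3.99 ± 3.09 with 91 counts and was positive in 25 cells, the most of any cluster bin.

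The lowest bin under the rule was in the ZNF91 cluster, 22700001 to 22800000, at 0.374 ± 0.530 with 13 counts over all cells (lowest and median 0, highest 1.66) and 4 positive cells. The PEG3 cluster held 56900001 to 57000000 at 0.462 ± 0.563 (4 positive cells) and 57500001 to 57600000 at 0.509 ± 0.715 (5 cells), both inside its low run. In the ZNF83 cluster, 52900001 to 53000000 was at 0.492 ± 0.769 (5 cells) and 53800001 to 53900000 at 0.514 ± 0.865 (7 cells). The lowest bins of the other clusters were 38000001 to 38100000 (ZNF382) at 0.576, 9500001 to 9600000 (ZNF266) at 0.647, 44900001 to 45000000 (ZNF45) at 0.743 and 11700001 to 11800000 (ZNF44) at 0.873. The lowest ZNF44 bin, positive in 10 cells, was thus above the mean of the ZNF91 cluster.

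Bins positive in nearly all cells were few in the clusters, as they were over all used bins. Positive in at least 21 of 26 cells were 4 of 132 cluster bins (3.03%), against 5.61% of all used bins and 113 of 427 bins of the rest of chromosome 19 (26.5%). The 4 were 1 bin of the ZNF44 cluster, 2 of the ZNF83 cluster and 1 of the PEG3 cluster, each of which is described above except 52600001 to 52700000 in the ZNF83 cluster at 2.00. Without cell 22 the count was 7 of 132 (5.3%), against 6.92% of all used bins.

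Bins positive in 5 cells or fewer were 21 of 132 (15.9%), against 33.5% of all used bins and 27 of 427 (6.32%) of the rest of the chromosome. Of the 21, 14 lay in the ZNF91 cluster, 4 in the PEG3 cluster, 2 in the ZNF382 cluster and 1 in the ZNF83 cluster. The share in the ZNF91 cluster alone, 30.4%, was near that of all used bins. This contrast with the genome depended on depth and on the ratio taken as positive. With every cell thinned to 20000 counts, 24 of 132 cluster bins (18.2%) were positive in few cells, against 19.6% of all used bins, and at a ratio of at least 2 the shares were 73.5% and 75.1%. The contrast stayed without the 6 cells of lowest coverage, at 15.9% against 37.1%, and without cell 22, at 16.7% against 35.8%.

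The expectation of a bin, recovered together with its counts, was lower in the clusters and moves with these results. Its median was 0.698 times that of all used bins in the clusters and 0.915 in the rest of chromosome 19. It was 0.429 in the ZNF91 cluster, where 36 of 46 bins had under 0.5 times the median, and 0.949 in the PEG3 cluster. The sources used here do not say what sets the expectation. In bins of like expectation the clusters stayed below the rest of the chromosome. Between 0.5 and 0.75 they were at 1.15 ± 0.388 against 1.92 ± 0.478 (lower in 26 of 26 cells), between 0.75 and 1 at 1.20 ± 0.435 against 1.93 ± 0.560 (26 cells), and from 1 upward at 1.08 ± 0.560 against 1.66 ± 0.506 (24 cells).

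Under 0.5 the comparison was weak, with 45 cluster bins at 0.906 ± 0.301 and only 22 others at 1.44 ± 1.36, and the clusters were lower in 18 cells. The ZNF91 cluster, against bins of the rest within its own range of expectation, was at -1.18 on the log2 scale and lower in 25 cells. With all bins of low expectation left out it was at -1.01 and lower in 24 cells, from 10 of its 46 bins. Against the other autosomes in bins of like expectation, the clusters were lower under 0.5, at 0.906 ± 0.301 against 1.44 ± 0.309 (25 of 26 cells). Between 0.5 and 0.75 they were lower in 17 cells, with the other autosomes at 1.19 ± 0.100. Between 0.75 and 1 they were higher in 19 cells, with the other autosomes at 0.973 ± 0.0192, and from 1 upward in 15, so none of these 3 ranges was placed. The difference of the ZNF91 cluster from the other clusters was less steady with low expectation left out, since 1 of the 21 pairs was then placed.

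**Figure D4:**
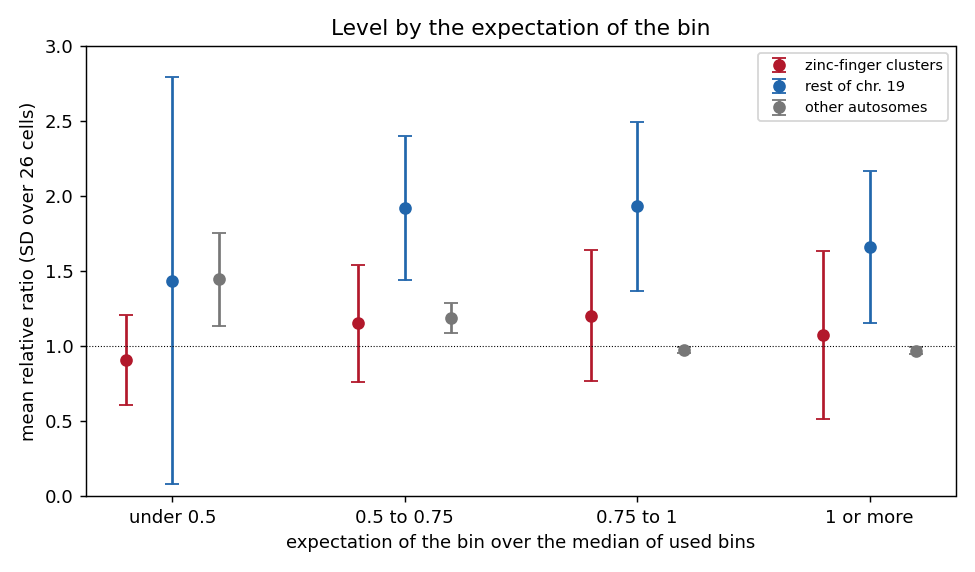
Mean relative ratio (vertical axis, mean over 26 cells with SD) of the zinc-finger clusters, the rest of chromosome 19 and the other autosomes, by the expectation of the bin relative to the median of used bins (horizontal axis, 4 ranges). From 0.5 upward the clusters have means of 1.08 to 1.20 and the rest of chromosome 19 means of 1.66 to 1.93, and under 0.5 the error bars overlap widely.

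The gap to the rest of the chromosome was seen on both arms. Short-arm clusters were at 0.941 ± 0.287 against 2.03 ± 0.563 for the rest of the arm, a mean log2 of -1.10 ± 0.49 that was negative in 25 of 26 cells. Long-arm clusters were at 1.20 ± 0.513 against 1.67 ± 0.580, a mean log2 of -0.53 ± 0.37 that was negative in 26 of 26 cells. The arms differ in both terms, since the rest of the short arm was the higher of the 2 and its clusters, taken over all their bins, the lower. Of the 62 short-arm cluster bins, 46 lie in the ZNF91 cluster, at 0.816. The ZNF266 and ZNF44 clusters of the same arm were at 1.01 and 1.52.

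Cells differed in the clusters of the long arm above all in cells 3 and 13. In cell 13 the long-arm clusters were at 3.10 and the short-arm clusters at 0.586, while the rest of the long arm was at 3.75 and the rest of the short arm at 2.67. In cell 3 both were high, 2.29 and 2.03, as was the rest of both arms (3.19 and 2.97). In cell 22 the long-arm clusters were at 0.270 and the short-arm clusters at 0.758, and the rest of the arms at 0.851 and 0.565. Cell 22 was the 1 cell in which the short-arm clusters lay above the rest of their arm.

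Across the 26 cells, the levels of the 6 pairs of long-arm clusters had a mean Pearson r of 0.662 (0.514 to 0.842) and a mean Spearman rho of 0.298. Without cells 3 and 13 the mean r was 0.310. Pairs with 1 cluster on each arm had a mean r of 0.0634 (0.0388 without those cells), and the 3 short-arm pairs 0.184 (0.00323 without them). The levels of all short-arm and all long-arm clusters had r = 0.195 and rho = 0.0646 (r = 0.106 without cells 3 and 13), while the rest of the arms had r = 0.689 and rho = 0.938, or r = 0.920 without cells 3 and 13. Clusters of a cell share a library and a depth, and short sets of bins carry more counting error than the rest of an arm, so these values are descriptions. The mean r over all 21 pairs was 0.252 in all cells, 0.111 without cells 3 and 13, and -0.0145 with each cluster divided by the rest of its own arm. On that own-arm scale the mean r was 0.203 for long-arm pairs (-0.0912 to 0.505), -0.156 for pairs across arms and 0.114 for short-arm pairs. Without cells 3 and 13 these means were 0.218, -0.143 and 0.0760.

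**Figure D5:**
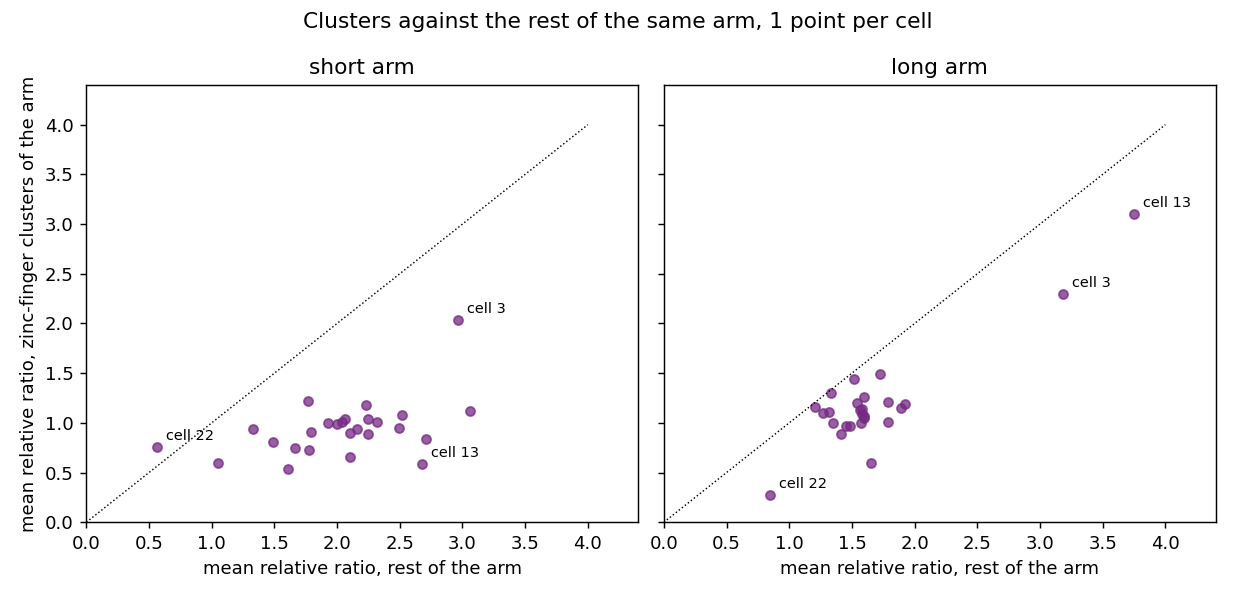
Level of the zinc-finger clusters of an arm (vertical axis) against the level of the rest of that arm (horizontal axis), both as mean relative ratios with 1 point per cell for 26 cells, for the short arm and the long arm; the dotted line marks equal levels. Points lie under the line in 25 of 26 cells on the short arm and in 26 of 26 on the long arm, and cells 3 and 13 are the 2 highest on the long arm.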

How the data were processed

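Single-cell DamID of 26 KBM7 cells (clone 5-8, 1 group) was used. The values the authors deposited are a ratio on a linear scale for each cell and 100 kb bin, taken to be observed over expected because the file's name abbreviates it so. Per the submitters' processing notes, cutadapt, Bowtie2 2.1.0 and hg19 were used. How reads were counted, bins masked and the expectation made is not stated in them or in the labels.

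Of 30376 bins, 3792 had no value and 253 were 0 in all cells. Each column matched 1 sample by its number. No pair of cells had identical values. Whole counts and a relative expectation per bin were recovered from the steps between ratios (tolerance 0.001). A low count fixes both only up to a common factor. Totals are given with the results, and intervals cover counting error only.

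At least 80% of cells had to lie on a side for a comparison to be placed there. Named bins were, among those with an expectation of at least 0.5 times the median, the highest and lowest of each cluster and the 5 highest and 5 lowest of all. The members, lists and rules were chosen with earlier results of these data known. Promoters came from RefSeq on GRCh38.p14. Scripts were tested on simulated data and used Python 3.11.15, numpy 2.4.6, pandas 2.3.3 and scipy 1.17.1. Alternatives covered bin filters, scales, cells left out, cluster limits, the comparison set and thinning to 20000 counts per cell.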

Additional observations from a re-analysis of the deposited data

How the results depend on the processing

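Of 221 alternatives, 212 stayed within the spread of the result (counts within 1.5 times), 8 moved it further and 1 turned its sign. Among the 212, the outer over inner bins of the ZNF83 cluster, placed on neither side, went from -0.27 to 0.13 with low expectation left out. Within that spread some values moved by over 1.5 times. Among them, the ZNF44 cluster over the rest of the chromosome was at -0.23 by the share of positive bins. The ZNF45 cluster over the rest was at -0.53 with 1 bin added on each side. All clusters over the other autosomes, at 0.06 in the main setting, ran from 0.02 to 0.17 and stayed on neither side. The mean correlation between clusters was 0.111 without cells 3 and 13. The clusters stayed below the rest of chromosome 19 in all 13 alternatives, at -1.01 to -0.63 on the log2 scale, and the ZNF91 cluster in all 15, at -1.61 to -1.01. The mean correlation between clusters across cells turned to -0.0145 when each was divided by the rest of its own arm. That mean joins long-arm pairs at 0.203, pairs across arms at -0.156 and short-arm pairs at 0.114. With bins of low expectation left out, 1 pair of clusters was placed. The count of bins positive in most cells was 13 at a ratio of at least 0.5 (9.85% of cluster bins against 17.8% of all used bins). It was 0 at a ratio of at least 2 (0% against 0.46%). Without the 6 cells of lowest coverage it was 9 (6.82% against 9.18%). Without cell 22 it was 7 (5.3% against 6.92%), and after thinning it was 2 (1.52% against 4.56%). The count positive in few cells was 6 at 0.5 (4.55% of cluster bins against 6.86% of all used bins) and 97 at 2 (73.5% against 75.1%). After thinning it was 24 (18.2% of cluster bins against 19.6% of all used bins). The comparisons that changed their side are given with the results, apart from the ZNF45 cluster against its flanks by the share of positive bins, which was at -0.58 and not placed. Leaving out cells 3 and 13, the own-arm scale, the matched range of expectation and a part of the thinned comparisons were chosen after seeing the data. Leaving out bins of low expectation could not be run for the profile of the ZNF91 cluster. No paired analysis was possible because the series has 1 group and so no groups that share replicate numbers; comparisons of bins within a cell are paired by their construction. The depth of 1.66 counts per cluster bin and cell does not allow a bin to be read in a single cell.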
